A study of Mus musculus with 42 samples.

Results

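The 9 genes described here belong to the insulin-like growth factor (IGF) system: Igf1, the receptor genes Igf1r and Igf2r, and the binding protein genes Igfbp2, Igfbp3, Igfbp4, Igfbp5, Igfbp6 and Igfbp7. They were chosen by name and are 9 of the 18194 genes on the array. Each was measured, by 26 probe sets in all, and each gene is represented by its probe set with the highest mean over all 42 arrays. No filter on low values was applied.

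The study followed the lungs of newborn mice that lacked Nrf2 or had it. Nrf2, encoded by Nfe2l2, is a transcription factor that turns on antioxidant and detoxifying genes through antioxidant response elements. There were 14 groups of 3 mice: Nrf-/- pups (KO) in oxygen at P2, P3 and P4, KO pups in room air at P1, P2, P3 and P4, Nrf+/+ wild-type pups (WT) in oxygen at P2, P3 and P4, and WT pups in room air at P1, P2, P3 and P4. P1 is the day of birth, counted as day 0. Oxygen-exposed pups (O2) breathed nominally 100% and at least 95% oxygen for 23 h a day over 1, 2 or 3 days, with foster dams, and there was no O2 group at P1. Homogenised whole lung of each mouse gave 1 array. No source used here gives the mouse strain, the litter and sex of the pups or any array batch, and the labels name no cell type or promoter that limits the deletion.

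IGF1 and IGF2 signal through IGF1R, a receptor tyrosine kinase that acts through the IRS adaptor proteins, PI3 kinase and AKT. IGF2R, which is also the mannose 6-phosphate receptor, has no kinase and carries IGF2 to lysosomes. The binding proteins hold IGFs outside the cell, which can prolong their life or keep them from the receptor, and proteases such as PAPP-A, PAPP-A2 and HTRA1 cut binding proteins. In the lung IGF1 comes largely from mesenchymal cells and takes part in the growth of septa and vessels, and low circulating IGF1 has been linked to bronchopulmonary dysplasia in preterm infants.

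Nfe2l2 itself averaged 4.68 ± 0.29 on the log2 scale on KO arrays and 10.86 ± 0.28 on WT arrays (SD, n = 21 each), with ranges of 4.26 to 5.46 and 10.32 to 11.56 that did not overlap. Array medians ran from 6.31 to 6.40, and the lung genes Sftpc, Sftpb, Scgb1a1, Foxf1, Nkx2-1 and Ager were all measured on every array, Sftpc at 14.52 or more. For 4 marker lists of other tissues (hepatocyte, heart muscle, skeletal muscle and thymocyte) a score was formed as the mean deviation of the list's genes from their own means over the 42 arrays. This score passed 2 on 16 arrays, 4 KO and 12 WT, and these included all 3 WT air arrays at P1 and all 3 at P2. Values with these 4 scores as covariates, or without these arrays, are given where they end a call. Without these arrays no WT air array was left at P1 or P2. Comparisons that use those groups could therefore not be fitted without them. These were O2 against air in WT and KO against WT in air over the mean of ages, P4 against P1 in WT air, and the genotype differences in these changes. For them the lack of such a value does not mean that the call held. Because whole lung was measured, fewer cells of a type and less RNA per cell cannot be told apart.

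A difference was called when its adjusted p was below 0.05, from a limma model with 14 group means and Benjamini-Hochberg adjustment over the 18194 genes. Between P4 and P1 in KO air, 3 of the 9 genes changed (1 higher, 2 lower), where 21.6% of all genes were called. In WT air 6 of 9 changed (3 higher, 3 lower), against 22.4% of all genes. Between KO and WT in O2, over the mean of 3 ages, 5 of 9 differed (4 higher, 1 lower in KO), against 12.5% of all genes. In air, over 4 ages, 4 of 9 differed (2 higher, 2 lower), against 29.0%. Between O2 and air, over 3 ages, 3 of 9 changed in KO lungs (2 higher, 1 lower), against 20.8%, and 3 of 9 in WT lungs (1 higher, 2 lower), against 23.9%. By direction, the shares of all genes called higher and lower were 8.09% and 13.5% for P4 against P1 in KO air, 11.2% and 11.3% in WT air, 6.30% and 6.18% for KO against WT in O2, 14.5% and 14.4% in air, 13.5% and 7.28% for O2 against air in KO and 14.4% and 9.53% in WT lungs. At P2 and P3 against P1, 2 and 2 of the 9 genes were called in KO air, against 13.3% and 12.8% of all genes, and 3 and 5 in WT air, against 14.5% and 20.6%. These comparisons share groups with each other. When each gene was taken as the mean of its probe sets, the counts were 2 of 9 for KO against WT in O2 and 2 of 9 in air. For P4 against P1 in KO air the count was 5 of 9 with array weights or on the contrast's arrays alone, and 6 of 9 without the arrays high in other tissues. No test of the shares was made.

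**Figure D1:**
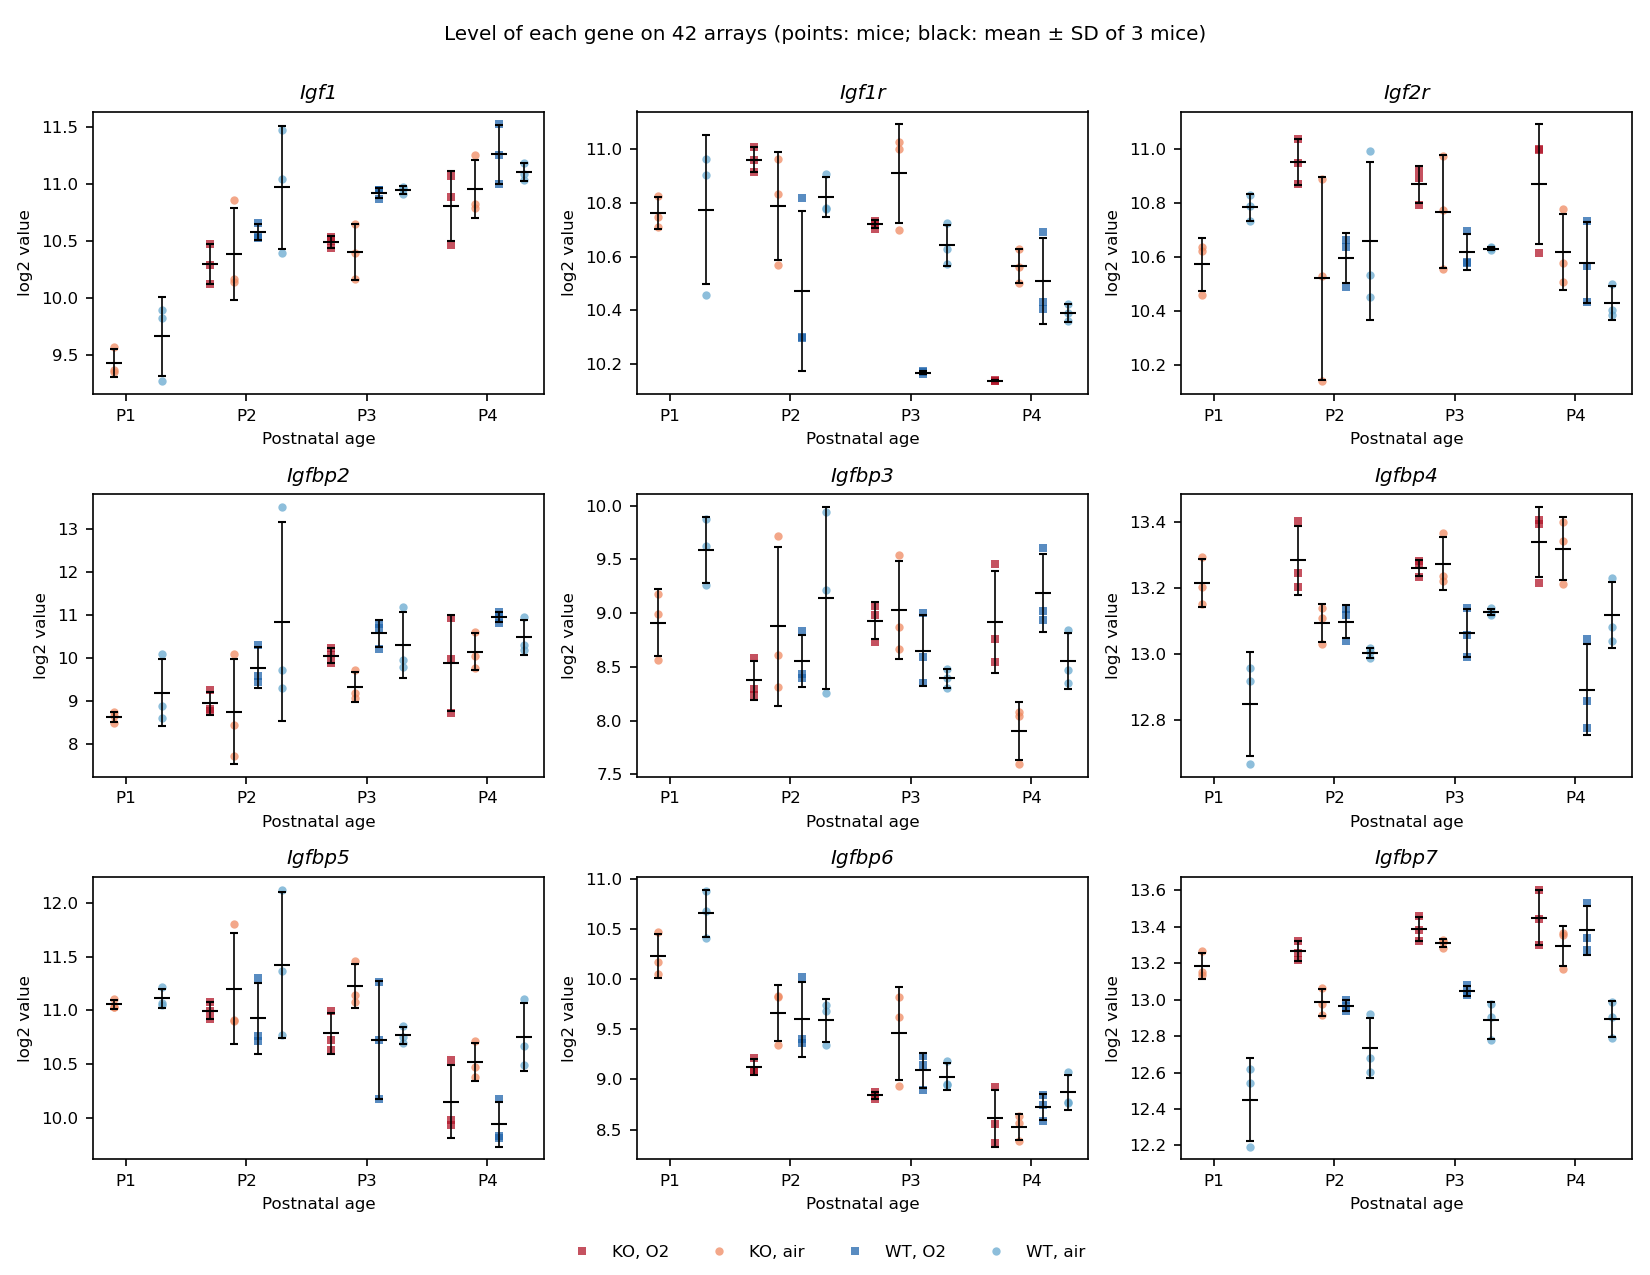
Level of each of the 9 genes (log2 value, vertical axis of each panel) against postnatal age, with 1 point per mouse, KO left of WT and O2 left of air at each age, and black bars for the mean ± SD of 3 mice. Igf1 is lowest at P1 and Igfbp6 highest at P1 in both genotypes, and the KO points of Igfbp7 in air lie above the WT points at P1, P3 and P4.

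**Figure D2:**
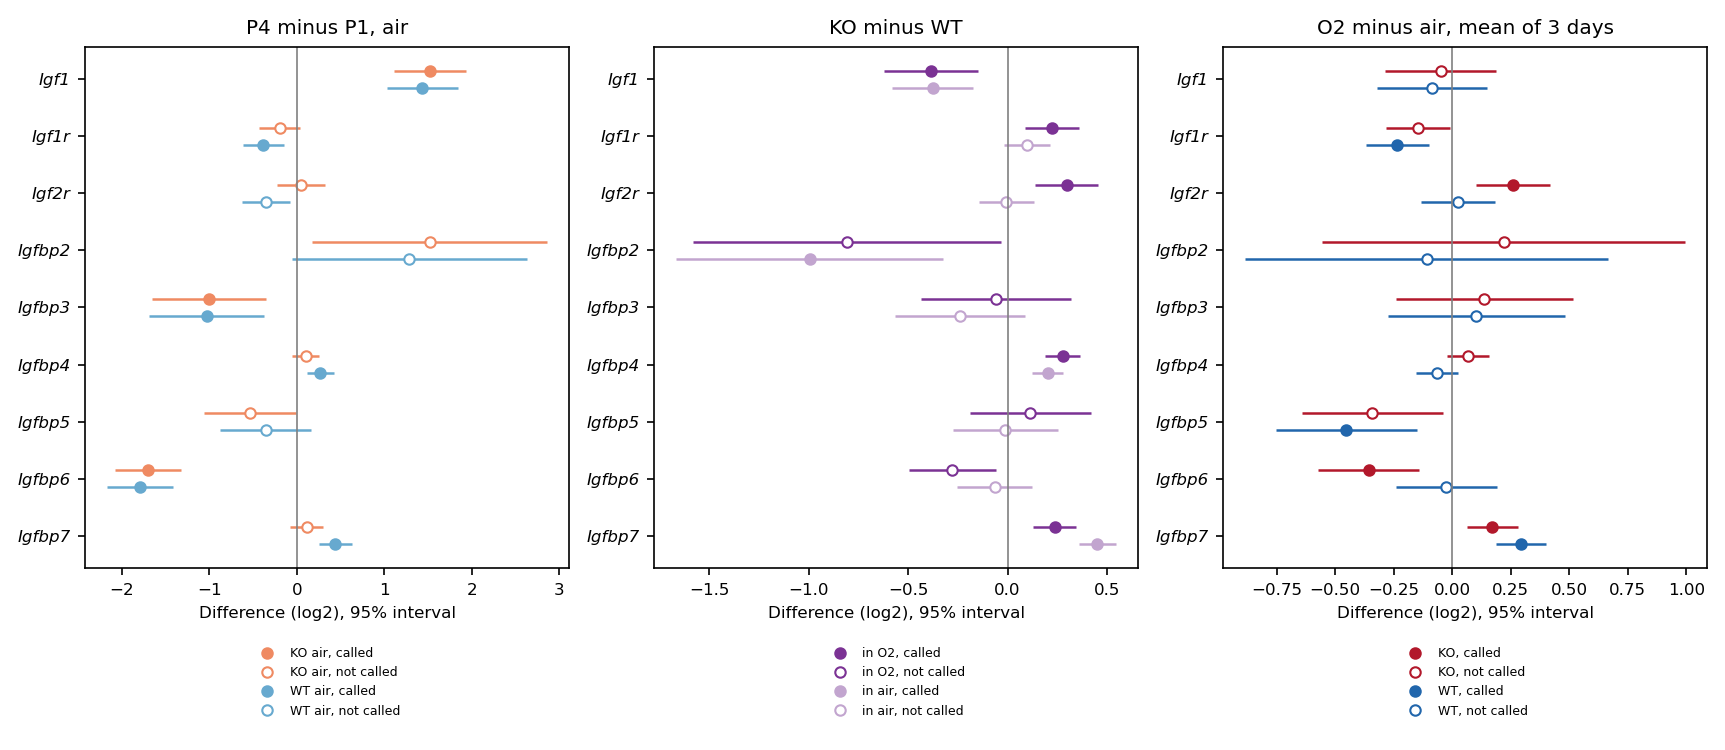
Differences on the log2 scale (horizontal axis) with 95% intervals for the 9 genes, in panels for P4 minus P1, KO minus WT and O2 minus air; filled points were called by limma. The longest intervals are those of Igfbp2, and the P4 minus P1 points of Igf1 and Igfbp6 are filled in both genotypes, above 0 for Igf1 and below 0 for Igfbp6.

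Igf1, the ligand, was the member that rose most clearly after birth, in both genotypes. In KO air lungs Igf1 measured 9.57, 9.37 and 9.35 at P1, 10.14, 10.17 and 10.85 at P2, 10.65, 10.40 and 10.16 at P3, and 11.25, 10.79 and 10.82 at P4. In WT air lungs it measured 9.27, 9.83 and 9.90 at P1, 11.47, 10.39 and 11.04 at P2, 10.95, 10.91 and 10.97 at P3, and 11.04, 11.08 and 11.19 at P4. Every P2, P3 and P4 array was above every P1 array of its genotype. P4 exceeded P1 by 1.52 ± 0.20 in KO air (SE, 2.87-fold, adjusted p = 1.15e-06) and by 1.44 ± 0.20 in WT air (2.71-fold, adjusted p = 2.29e-06). Most of the rise was in place by P2, at 0.96 ± 0.20 in KO and 1.30 ± 0.20 in WT air, and all 4 Igf1 probe sets were called in both genotypes, from 1.35 to 1.52 in KO and from 1.10 to 1.44 in WT. The difference between the genotypes in this rise was 0.09 ± 0.28 (adjusted p = 0.950). Along with it, the myofibroblast and smooth muscle list rose in 5 of 8 genes in KO and 5 of 8 in WT air, with medians of 0.52 and 0.54, and the part of these cells in the rise of Igf1 was not tested.

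The RefSeq promoter window of Igf1 is shown because this gene carried the clearest rise after birth. The RefSeq gene itself begins further upstream, at 87858265, and no window at that position was searched. The window holds the 250 bases before and the 50 bases from the start site used, on the plus strand at chr10:87860861-87861160 (build GRCm38.p6). The capitals mark its only match to the 4 motifs searched, a CCAAT box read on the opposite strand:
Igf1: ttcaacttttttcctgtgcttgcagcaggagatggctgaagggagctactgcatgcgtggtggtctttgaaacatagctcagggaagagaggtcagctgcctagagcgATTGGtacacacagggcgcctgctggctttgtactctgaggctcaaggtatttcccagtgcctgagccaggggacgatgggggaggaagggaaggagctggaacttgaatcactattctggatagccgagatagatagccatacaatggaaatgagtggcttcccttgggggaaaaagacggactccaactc
The motifs searched on both strands were the antioxidant response element core TGACNNNGC, the TATA box TATAAA, the CCAAT box CCAAT and the hypoxia response element core ACGTG. They occur in 12.4%, 13.6%, 37.4% and 19.6% of the 32851 RefSeq windows of this length, so a match is common and describes the letters only.

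Oxygen did not move Igf1 past the test in either genotype. The O2 minus air difference over 3 ages was -0.05 ± 0.12 in KO (adjusted p = 0.840) and -0.09 ± 0.12 in WT lungs (adjusted p = 0.686). At P4 the O2 arrays read 10.47, 10.88 and 11.07 in KO and 11.002, 11.52 and 11.25 in WT lungs, and both sets overlapped their air groups.

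Igf1 was lower in KO than in WT lungs by 0.39 ± 0.12 in O2 (adjusted p = 0.0245) and by 0.38 ± 0.10 in air (adjusted p = 0.00528). At P2 in O2 the KO arrays measured 10.47, 10.13 and 10.29 and the WT arrays 10.65, 10.56 and 10.52. At P3 in O2 they measured 10.50, 10.44 and 10.54 in KO and 10.87, 10.94 and 10.95 in WT. The genotypes did not overlap on either day, while at P4 they did. Only 1 of the 4 Igf1 probe sets was called in each comparison, and the other 3 ran from -0.29 to -0.21 in O2 and from -0.20 to -0.16 in air. With the mean of the probe sets the difference was -0.28 (adjusted p = 0.0941) in O2 and -0.22 (adjusted p = 0.0768) in air, and neither was called. The O2 call also ended without WT O2 replicate 2 at P4 (-0.34, adjusted p = 0.0618), KO O2 replicate 2 at P2 (-0.36, adjusted p = 0.0523) or KO O2 replicate 1 at P4 (-0.33, adjusted p = 0.0602). Macrophage markers were lower in KO for 4 of 8 genes in O2 and 7 of 8 in air, with medians of -0.42 and -0.41. Within groups, over the 42 arrays, the correlation of Igf1 with the macrophage score was -0.37. With the lung fibroblast score it was 0.38, and with the myofibroblast and smooth muscle score 0.35. The part of these cells in the Igf1 difference was not tested.

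Over the 14 groups Igf1 was highest in WT O2 at P4 (11.26 ± 0.26) and lowest in KO air at P1 (9.43 ± 0.12), a span of 1.83. Of the 13 pairs of neighbours in this order, 12 overlapped in range. The single gap lay between KO O2 at P2 (10.30 ± 0.17) and WT air at P1 (9.67 ± 0.34), so the P1 groups stood apart and the later groups formed a continuous series.

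Igf1r, the signalling receptor, was lower in O2 than in air at P4 in KO lungs and at P3 in WT lungs by the test. In KO lungs Igf1r measured 10.96, 10.91 and 11.01 at P2, 10.70, 10.73 and 10.73 at P3, and 10.14, 10.14 and 10.14 at P4 in O2. In KO air lungs it measured 10.57, 10.96 and 10.83 at P2, 10.70, 11.001 and 11.03 at P3, and 10.63, 10.50 and 10.56 at P4. The KO O2 arrays thus agreed closely within each day and stepped down by day, and only at P4 were they clear of their air group. There the O2 minus air difference was -0.42 ± 0.12 (adjusted p = 0.00453, with 2 of 9 genes called at this age against 31.7% of all genes), and the call ended with the mean of the probe sets (-0.25, adjusted p = 0.0724).

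In WT lungs Igf1r measured 10.30, 10.30 and 10.82 at P2, 10.17, 10.16 and 10.17 at P3, and 10.40, 10.43 and 10.69 at P4 in O2. In WT air it measured 10.78, 10.78 and 10.91 at P2, 10.57, 10.72 and 10.63 at P3, and 10.42, 10.39 and 10.36 at P4. The WT O2 arrays at P3 lay below every WT air array at any age. The difference there was -0.47 ± 0.12 (adjusted p = 0.0114, 1 of 9 genes called against 5.40% of all genes), and over 3 ages it was -0.24 ± 0.07 (adjusted p = 0.00826), called in 4 of the 5 probe sets. The WT call at P3 ended without WT air replicate 2 at P3 (-0.43, adjusted p = 0.0706) and with the other-tissue scores as covariates (-0.32, adjusted p = 0.0894).

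Set side by side in O2, Igf1r was higher in KO than in WT lungs by 0.49 ± 0.12 at P2 (adjusted p = 0.0140) and by 0.55 ± 0.12 at P3 (adjusted p = 0.00341), and lower by 0.37 at P4 (difference -0.37 ± 0.12, adjusted p = 0.0371). The counts of the 9 genes called were 1 at P2, 2 at P3 and 2 at P4, against 2.96%, 5.13% and 9.82% of all genes. The mean over the 3 ages was 0.22 ± 0.07 (adjusted p = 0.0234). This mean call ended with the mean of the probe sets (0.17, adjusted p = 0.0644) and without WT O2 replicate 1 (0.20, adjusted p = 0.0675) or replicate 2 at P2 (0.19, adjusted p = 0.0573), or replicate 1 at P4 (0.21, adjusted p = 0.0532). The call at P2 ended without WT O2 replicate 1 or 2 or KO O2 replicate 1 or 3 of that age (0.40 to 0.49, adjusted p of 0.0563 to 0.125). The call at P3 ended with the mean of the probe sets (0.34, adjusted p = 0.0631). The call at P4 ended without WT O2 replicate 2 or 3 or any of the KO O2 replicates of that age (-0.41 to -0.28, adjusted p of 0.0526 to 0.195), and with the mean of the probe sets (-0.24, adjusted p = 0.152). The genotype difference in the O2 effect was 0.52 ± 0.16 at P2 (adjusted p = 0.0763) and -0.54 ± 0.16 at P4 (adjusted p = 0.103), where 2.69% and 0.561% of all genes were called. Neither passed the test, and over 3 ages it was 0.09 ± 0.09 (adjusted p = 0.765). Taken singly, the 5 Igf1r probe sets gave 0.33 to 1.05 for this difference at P2, and 1 of them was called. Endothelial markers in O2 were higher in KO for 3 of 9 genes at P2 (median 0.40) and 3 of 9 at P3 (median 0.38), while at P4 none was higher and 1 was lower (median 0.02). Their part in the Igf1r differences was not tested.

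With age Igf1r fell in WT air, by 0.38 ± 0.12 at P4 against P1 (adjusted p = 0.0138), and was -0.20 ± 0.12 in KO air (adjusted p = 0.238). The WT call ended without WT air replicate 2 (-0.29, adjusted p = 0.117) or replicate 3 at P1 (-0.32, adjusted p = 0.0853). In the fit on the arrays of the contrast alone it was -0.38 with adjusted p = 0.0882. Over the 14 groups Igf1r ran from 10.96 ± 0.05 in KO O2 at P2 to 10.14 ± 0.003 in KO O2 at P4, and 11 of 13 neighbours overlapped. The gaps lay above and below WT O2 at P3 (10.17 ± 0.01), so the 2 lowest groups were both exposed to oxygen.

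Igf2r was higher in O2 than in air in KO lungs and did not pass the test in WT lungs, and the genotype difference in the O2 effect was itself not called (0.24 ± 0.11, adjusted p = 0.329). In KO lungs Igf2r measured 10.95, 10.87 and 11.04 at P2, 10.89, 10.92 and 10.79 at P3, and 10.61, 11.00004 and 10.99 at P4 in O2. In KO air it measured 10.14, 10.53 and 10.89 at P2, 10.56, 10.98 and 10.78 at P3, and 10.58, 10.51 and 10.78 at P4. The groups overlapped on each day. At P2 the difference was 0.43 ± 0.13 (adjusted p = 0.0398, 2 of 9 genes called against 9.06% of all genes), and the other probe set was at 0.31 (adjusted p = 0.0660). The call at P2 ended without KO air replicate 1 (0.24, adjusted p = 0.343) or any of the KO O2 replicates of that age (0.39 to 0.47, adjusted p of 0.0646 to 0.130). It ended too with array weights (0.23, adjusted p = 0.190), with cyclic loess (0.36, adjusted p = 0.0917) and on the contrast's arrays alone (0.43, adjusted p = 0.338). With the other-tissue scores as covariates it was 0.34 (adjusted p = 0.693). Without the arrays high in other tissues it was 0.42, with only KO air replicate 2 left at that age. The mean difference was 0.26 ± 0.08 in KO (adjusted p = 0.0149), called in both probe sets, and 0.02 ± 0.08 in WT (adjusted p = 0.884). The KO call ended in the fit on the arrays of the contrast alone (0.26, adjusted p = 0.0647).

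Between genotypes Igf2r was higher in KO by 0.30 ± 0.08 in O2 (adjusted p = 0.00931) and was -0.01 ± 0.07 in air (adjusted p = 0.957). In WT O2 lungs it measured 10.49, 10.64 and 10.66 at P2, 10.70, 10.58 and 10.58 at P3, and 10.44, 10.57 and 10.74 at P4. At P2 and P3 these lay below all KO O2 arrays of the same age. The other Igf2r probe set gave 0.11 in O2 and was not called. The groups ran from 10.95 ± 0.08 in KO O2 at P2 to 10.43 ± 0.06 in WT air at P4. All 13 neighbours overlapped. Igf2r is an imprinted gene in the mouse, and the arrays do not separate the parental copies.

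Igfbp6, whose protein binds IGF2 in preference to IGF1, fell more steeply after birth than any of the other 8 genes. In KO air lungs Igfbp6 measured 10.17, 10.05 and 10.47 at P1, 9.34, 9.82 and 9.83 at P2, 8.94, 9.82 and 9.63 at P3, and 8.38, 8.57 and 8.64 at P4. In WT air lungs it measured 10.88, 10.41 and 10.68 at P1, 9.68, 9.35 and 9.74 at P2, 9.18, 8.94 and 8.95 at P3, and 8.77, 8.77 and 9.07 at P4. No array of P2 or later reached a P1 array of its genotype. P4 was below P1 with a difference of -1.70 ± 0.18 in KO (3.26-fold, adjusted p = 5.93e-08) and -1.79 ± 0.18 in WT air (3.45-fold, adjusted p = 2.73e-08), and the difference between genotypes in this fall was 0.08 ± 0.26 (adjusted p = 0.948). At P3 the fall stood at -0.77 ± 0.18 in KO and -1.63 ± 0.18 in WT. Mesothelium markers fell in 2 of 5 genes in each genotype, with medians of -0.23 in KO and -0.26 in WT, and their part was not tested.

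In O2 Igfbp6 was lower in KO lungs by a mean of 0.36 (difference -0.36 ± 0.11, adjusted p = 0.0147), while in WT lungs the difference was -0.02 ± 0.11 (adjusted p = 0.918). The KO O2 arrays at P3 measured 8.85, 8.87 and 8.80, all below the KO air arrays of that age, with a difference of -0.62 ± 0.18 (adjusted p = 0.0235, 1 of 9 genes called against 12.6% of all genes). At P4 the difference was 0.08 ± 0.18. The call at P3 ended without KO air replicate 2 or 3 or any of the KO O2 replicates of that age (-0.64 to -0.44, adjusted p of 0.0539 to 0.172), and without the arrays high in other tissues it was -0.10 (adjusted p = 0.794). The call over 3 ages ended without the arrays high in other tissues (-0.24, adjusted p = 0.0825). In KO lungs skeletal muscle markers fell in 6 of 10 genes and thymocyte markers in 9 of 9 with O2, with score ranges on KO air arrays that reached 5.84 and 3.35. Within groups, over the 42 arrays, the correlation of Igfbp6 with these scores was 0.51 and -0.28, and with the mesothelium score 0.77. At P3 the mesothelium score averaged 0.28 in KO O2 and 0.01 in KO air lungs. The part of these cells in the Igfbp6 difference was not tested.

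The Igfbp6 window is shown beside that of Igf1 because these 2 genes changed most with age, in opposite directions. It lies on the plus strand at chr15:102143936-102144235, and the capitals mark a TATA box letter match on the opposite strand and, after it, 2 CCAAT boxes on the gene's strand:
Igfbp6: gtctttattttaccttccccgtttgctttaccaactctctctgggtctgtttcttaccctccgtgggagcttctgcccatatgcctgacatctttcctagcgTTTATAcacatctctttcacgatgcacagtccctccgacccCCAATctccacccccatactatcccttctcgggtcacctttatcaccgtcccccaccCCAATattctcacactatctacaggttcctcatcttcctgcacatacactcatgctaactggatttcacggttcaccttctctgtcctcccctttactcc
The matches begin at positions -148, -107 and -50 from the RefSeq start site. Both windows hold CCAAT letters, as do 37.4% of all windows, and neither holds TGACNNNGC or ACGTG.

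Igfbp6 was highest in WT air at P1 (10.66 ± 0.23) and lowest in KO air at P4 (8.53 ± 0.13), a span of 2.13. Its 13 neighbours overlapped in range but for the gap between KO air at P1 (10.23 ± 0.22) and KO air at P2 (9.66 ± 0.28).

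Igfbp3, the main carrier of IGFs in serum, was also lower at P4 than at P1 in both genotypes, with wider spread. In KO air lungs Igfbp3 measured 8.99, 8.57 and 9.18 at P1 and 8.08, 7.60 and 8.04 at P4. In WT air lungs it measured 9.87, 9.63 and 9.26 at P1 and 8.35, 8.47 and 8.85 at P4. The ages did not overlap in either genotype. The differences were -1.004 ± 0.32 in KO (2.01-fold, adjusted p = 0.0229) and -1.03 ± 0.32 in WT (2.04-fold, adjusted p = 0.0178). Each call ended without 1 of several single arrays, with differences of -0.97 to -0.85 in KO (KO air replicates 1 and 3 at P1 and replicate 2 at P4, adjusted p of 0.0641, 0.0926 and 0.102). In WT they ran from -1.01 to -0.89 (WT air replicates 1 and 2 at P1 and replicates 1 and 2 at P4, adjusted p of 0.0824, 0.0526, 0.0752 and 0.0566). The other Igfbp3 probe set gave -0.65 in KO (adjusted p = 0.0976, not called) and -1.09 in WT (adjusted p = 0.00374).

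P3 minus P1 was 0.12 ± 0.32 in KO (adjusted p = 0.873) and -1.19 ± 0.32 in WT air (adjusted p = 0.00671). The genotype difference in this change was not tested. The WT value for P3 minus P1 was -0.71 with the other-tissue scores as covariates (adjusted p = 0.0440). KO minus WT in air ran from -0.72 to -0.68 over the 2 Igfbp3 probe sets at P1, not called. At P3 it ran from 0.63 to 0.76, and 1 of the 2 probe sets was called higher in KO. Between P1 and P3, skeletal muscle markers rose in 8 of 10 genes in KO air (median 3.90) and in none in WT air (median -0.82). Their score ran from 0.12 to 5.84 on the KO air arrays at P3 and from -0.72 to -0.44 at P1. Heart muscle markers fell in 2 of 10 genes in WT air (median -1.06) and none was called in KO air (median 0.10), and fat markers fell in 1 of 5 in WT air and in none in KO air. Within groups, over the 42 arrays, the correlation of Igfbp3 with the lung fibroblast score was 0.81, with the fat score 0.78 and with the pericyte score 0.76. With the heart muscle score it was 0.66 and with the skeletal muscle score 0.54. The lowest value was -0.55, with the alveolar type 2 epithelium score. The part of these cells in the Igfbp3 differences was not tested. At P4 Igfbp3 was higher in O2 than in air in KO lungs. It measured 9.45, 8.76 and 8.55 in KO O2 against 8.08, 7.60 and 8.04 in KO air, a difference of 1.01 ± 0.32 (adjusted p = 0.0148) with no overlap. In WT lungs at P4 it measured 9.60, 9.02 and 8.94 in O2 against 8.35, 8.47 and 8.85 in air, which also did not overlap, and the difference of 0.63 ± 0.32 did not pass the test (adjusted p = 0.152). The genotype difference in the O2 effect at P4 was 0.38 ± 0.45 (adjusted p = 0.725). The other probe set gave 0.58 for O2 in KO at P4 (adjusted p = 0.114, not called). The KO call at P4 ended without KO air replicate 2 (0.86, adjusted p = 0.0741) or KO O2 replicate 1 (0.75, adjusted p = 0.117). Igfbp3 ran from 9.59 ± 0.31 in WT air at P1 to 7.91 ± 0.27 in KO air at P4, the only group that stood clear of its neighbour.

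Igfbp4, which binds IGFs and is the substrate of PAPP-A, was the steadiest of the genotype differences. At P1 in air Igfbp4 measured 13.29, 13.15 and 13.20 in KO and 12.67, 12.92 and 12.96 in WT lungs. At P4 in O2 it measured 13.39, 13.41 and 13.21 in KO and 12.77, 12.86 and 13.04 in WT lungs. On both occasions every KO array was above every WT array. KO exceeded WT by 0.28 ± 0.04 in O2 (1.21-fold, adjusted p = 4.50e-05) and by 0.20 ± 0.04 in air (1.15-fold, adjusted p = 0.000168). All 6 probe sets were called in each, from 0.28 to 0.63 in O2 and from 0.20 to 0.49 in air. None of the 51 alternatives in O2 and 50 in air ended the call.

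By age the Igfbp4 difference in air was 0.37 ± 0.08 at P1 (adjusted p = 0.00260, 2 of 9 genes called against 6.78% of all genes) and 0.09 ± 0.08, 0.15 ± 0.08 and 0.20 ± 0.08 at P2, P3 and P4, which were not called. In O2 it was 0.19 ± 0.08 at P2 and 0.20 ± 0.08 at P3, not called, and 0.45 ± 0.08 at P4 (adjusted p = 0.000212). In WT air Igfbp4 was higher at P4 than at P1 by 0.27 ± 0.08 (adjusted p = 0.00825), in all 6 probe sets. That call ended without WT air replicate 1 at P1 (0.18, adjusted p = 0.105), without replicate 2 at P4 (0.21, adjusted p = 0.0716) and in the fit on the contrast's arrays alone (0.27, adjusted p = 0.101). In KO air the difference was 0.10 ± 0.08 (adjusted p = 0.372). With O2 at P4 it was 0.02 ± 0.08 in KO and -0.23 ± 0.08 in WT lungs (adjusted p = 0.0238 in WT), where 3 of 9 genes were called against 27.5% of all genes. That WT call ended without WT air replicate 2 (-0.17, adjusted p = 0.146), WT O2 replicate 1 (-0.17, adjusted p = 0.160) or WT O2 replicate 2 (-0.21, adjusted p = 0.0744) of that age.

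The Igfbp4 window is shown because this gene differed between genotypes in every probe set. It lies on the plus strand at chr11:99040994-99041293, with its TATA box, at position -28 from the start site, in capitals:
Igfbp4: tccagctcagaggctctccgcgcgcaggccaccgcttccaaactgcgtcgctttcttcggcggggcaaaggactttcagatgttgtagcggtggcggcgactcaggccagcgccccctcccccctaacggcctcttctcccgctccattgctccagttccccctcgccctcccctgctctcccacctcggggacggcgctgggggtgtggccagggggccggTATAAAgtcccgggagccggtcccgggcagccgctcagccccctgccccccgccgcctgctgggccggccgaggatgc
No match to TGACNNNGC, the letters searched for Nrf2, was found in this window, which says nothing of sites elsewhere. The RefSeq gene itself begins upstream of the window, at 99040005. The Igfbp4 groups ran from 13.34 ± 0.11 in KO O2 at P4 to 12.85 ± 0.16 in WT air at P1. The 6 highest groups were all KO, and only KO air at P2 (13.09 ± 0.06) lay among the WT groups, so the gap between KO air at P1 (13.22 ± 0.07) and WT air at P3 (13.13 ± 0.01) was the single place where neighbours did not overlap.

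Igfbp7, a low-affinity IGF binder made in quantity by vascular cells, was higher in KO lungs and higher in oxygen by its main probe set. In air Igfbp7 measured 13.26, 13.15 and 13.14 in KO and 12.19, 12.54 and 12.62 in WT lungs at P1. At P3 in air it measured 13.32, 13.29 and 13.33 in KO and 12.98, 12.78 and 12.90 in WT. At P4 in air it measured 13.37, 13.17 and 13.35 in KO and 12.90, 12.79 and 12.99 in WT. The genotypes did not overlap at these ages, and at P2 they did. KO exceeded WT in air by 0.45 ± 0.05 (1.37-fold, adjusted p = 1.24e-08), with 0.73 ± 0.09 at P1, 0.42 ± 0.09 at P3 and 0.40 ± 0.09 at P4 called. At P2 the difference was 0.25 ± 0.09 (adjusted p = 0.0667). The counts of the 9 genes called at P2, P3 and P4 in air were 1, 1 and 1, against 13.1%, 21.6% and 0.726% of all genes. In O2 the mean difference was 0.24 ± 0.05 (1.18-fold, adjusted p = 0.00261).

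Oxygen raised Igfbp7 by 0.17 ± 0.05 in KO (adjusted p = 0.0188) and by 0.29 ± 0.05 in WT lungs (adjusted p = 8.40e-05). At P4 it measured 13.34, 13.27 and 13.53 in WT O2 lungs and 12.90, 12.79 and 12.99 in WT air lungs, without overlap, a difference of 0.49 ± 0.09 (adjusted p = 0.000115). The difference between the genotypes in the O2 effect was -0.12 ± 0.07 (adjusted p = 0.517). The KO call ended with the other-tissue scores as covariates (0.15, adjusted p = 0.251) and without the arrays high in other tissues (0.14, adjusted p = 0.0978), KO air replicate 2 at P4 (0.15, adjusted p = 0.0501) or KO O2 replicate 3 at P4 (0.15, adjusted p = 0.05001). With age Igfbp7 rose by 0.44 ± 0.09 in WT air (P4 against P1, adjusted p = 0.000488) and was 0.11 ± 0.09 in KO air (adjusted p = 0.421), and this contrast between genotypes was not called (-0.33 ± 0.13, adjusted p = 0.356).

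The genotype difference of Igfbp7 rested on 1 of its 3 probe sets. That probe set had a mean level of 13.09 over the 42 arrays. The other 2, with mean levels of 7.37 and 7.25, gave 0.03 and -0.19 in O2 and -0.03 and -0.15 in air, none of them called. With the mean of the 3 probe sets the difference was 0.03 (adjusted p = 0.757) in O2 and 0.09 (adjusted p = 0.0712) in air, and that of P4 against P1 in WT air was 0.16 (adjusted p = 0.129). For the O2 effect the probe set at 7.25 was called too, at 0.29 in KO and 0.35 in WT lungs, and the probe set at 7.37 gave -0.07 and -0.14. Endothelial markers were higher in KO for 5 of 9 genes in O2 and 4 of 9 in air, with medians of 0.25 and 0.16. Their score ran from -0.25 to 0.36 on KO O2 and from -0.38 to 0.05 on WT O2 arrays, and from -0.25 to 0.28 on KO air and from -0.45 to 0.21 on WT air arrays, and their part in the Igfbp7 difference was not tested. The Igfbp7 groups ran from 13.45 ± 0.15 in KO O2 at P4 to 12.45 ± 0.23 in WT air at P1, with a single gap between neighbours, below KO air at P1 (13.18 ± 0.07).

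**Figure D3:**
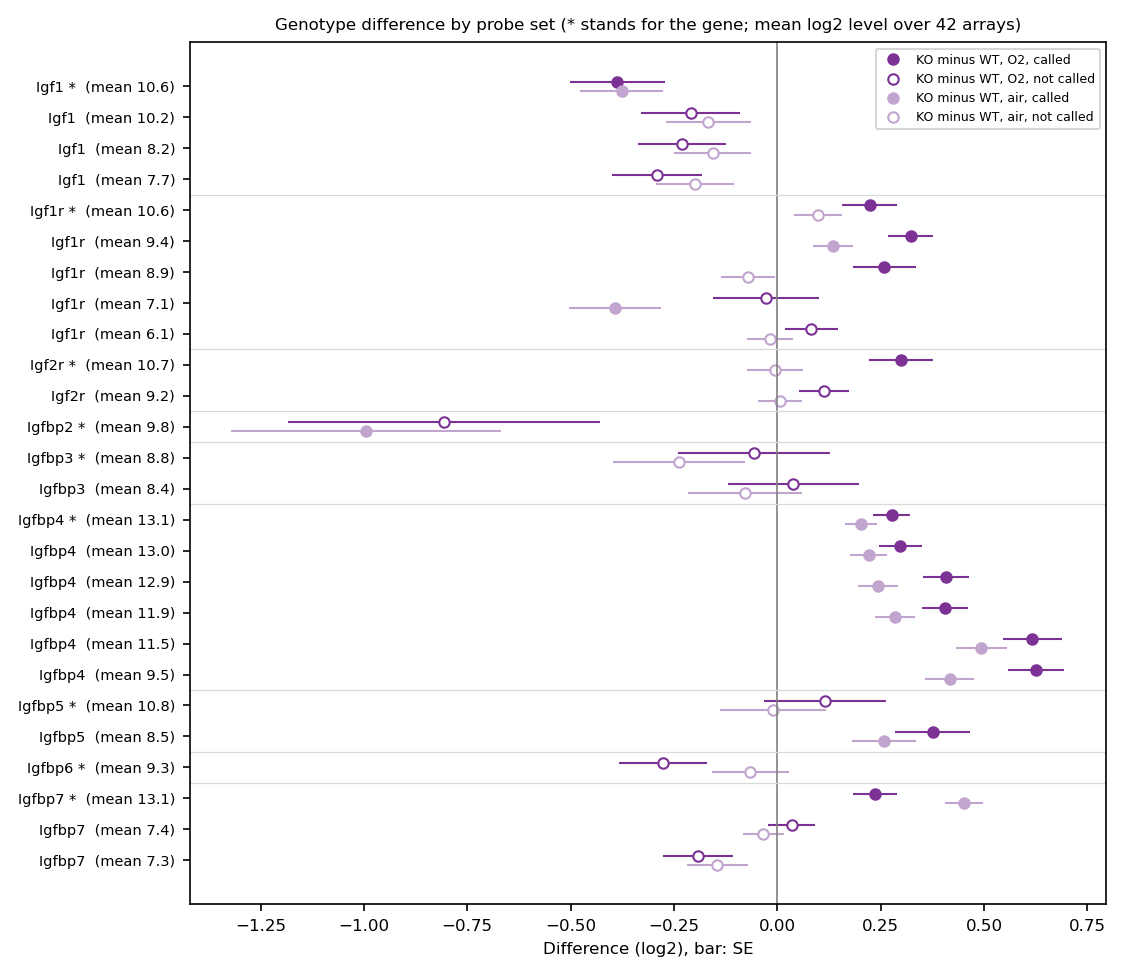
KO minus WT difference on the log2 scale (horizontal axis, bar: SE) for each of the 26 probe sets of the 9 genes, in O2 and in air, with the mean level of each probe set beside its gene; filled points were called and an asterisk marks the probe set that stands for the gene. All 6 Igfbp4 probe sets lie above 0 and are filled. All 4 Igf1 probe sets lie below 0 and 1 of them is filled, while for Igfbp7 1 of 3 is filled, above 0.

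Igfbp2, a binding protein with higher affinity for IGF2 and made in quantity by fetal liver, had the widest spread of the 9 genes and a genotype difference beside which liver transcripts differed too. In air at P2 Igfbp2 measured 8.43, 7.72 and 10.09 in KO and 9.31, 13.51 and 9.72 in WT lungs. At P3 it measured 9.71, 9.19 and 9.06 in KO and 9.78, 11.17 and 9.95 in WT lungs. A single WT array stood far above the rest at P2, and the KO and WT arrays did not overlap at P3. Over 4 ages in air KO was below WT, with a difference of -0.99 ± 0.33 (adjusted p = 0.0233), and at P2 it was -2.09 ± 0.66 (adjusted p = 0.0315). In O2 it was -0.81 ± 0.38 (adjusted p = 0.170). The call at P2 ended without WT air replicate 2 (-0.76, adjusted p = 0.381), KO air replicate 1 (-1.94, adjusted p = 0.113) or KO air replicate 2 (-1.58, adjusted p = 0.131) of that age.

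The call in air ended with the other-tissue scores as covariates (-0.35, adjusted p = 0.518), in the fit on the contrast's arrays alone (-0.99, adjusted p = 0.0683) and without WT air replicate 2 at P3 (-0.88, adjusted p = 0.0513). Without WT air replicate 2 at P2 it was -0.66 (adjusted p = 0.0367). All 10 of the 10 measured hepatocyte markers were lower in KO air than in WT air lungs, with a median of -2.22. At the single ages P1, P2, P3 and P4 none of the 10 was called, with medians of -2.17, -2.29, -2.83 and -1.75. The hepatocyte score ran from -1.59 to 3.25 on KO air and from -1.59 to 6.68 on WT air arrays. The WT air array at P2 with 13.51 for Igfbp2 had the highest hepatocyte score, 6.68, and the KO air array at P2 with 10.09 had the highest KO score, 3.25. In 12 of the 14 groups the array highest in Igfbp2 was also the highest in the hepatocyte score, and in all 7 groups that held an array with a hepatocyte score above 2. The part of liver transcripts in the Igfbp2 difference was not tested.

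**Figure D4:**
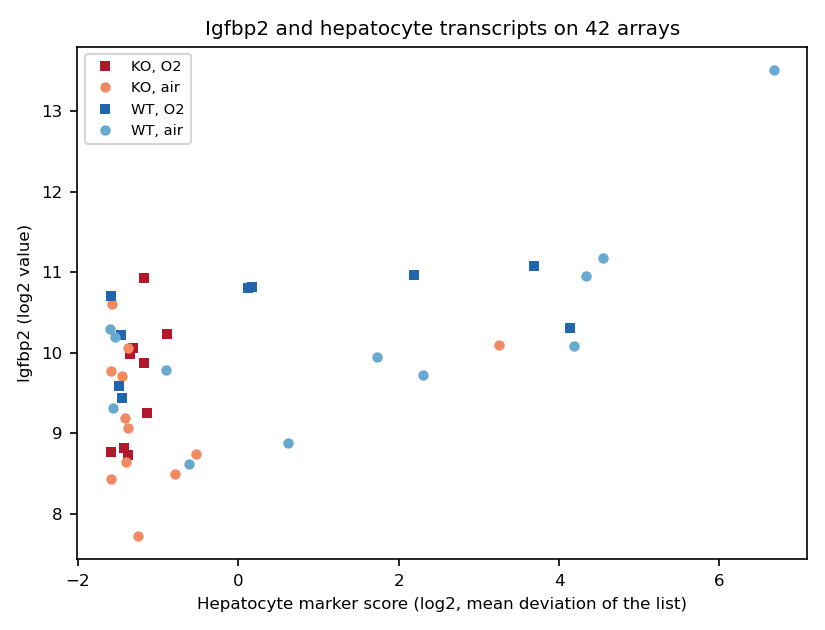
Igfbp2 level (log2 value, vertical axis) against the hepatocyte marker score (log2, mean deviation of 10 genes, horizontal axis) on the 42 arrays, coloured by genotype and exposure. The WT air array at 13.51 has a score of 6.68, and among arrays with scores below -1 Igfbp2 still spreads from 7.72 to 10.93.

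Igfbp2 also tended upward with age, without a call. It measured 8.49, 8.64 and 8.75 at P1 and 10.61, 9.77 and 10.05 at P4 in KO air, and 8.61, 10.09 and 8.88 at P1 and 10.19, 10.30 and 10.95 at P4 in WT air. The ages did not overlap in either genotype. P4 minus P1 was 1.52 ± 0.66 in KO (adjusted p = 0.100) and 1.29 ± 0.66 in WT (adjusted p = 0.182). Without WT air replicate 2 at P2 these were called at the same values, with adjusted p of 0.0164 in KO and 0.0412 in WT. With the other-tissue scores as covariates they were 1.65 (adjusted p = 0.0166) and 1.55 (adjusted p = 0.0176). All hepatocyte scores of the KO air arrays at P1 and P4 lay between -1.59 and -0.53. On WT air arrays they ran from -0.62 to 4.19 at P1 and from -1.59 to 4.34 at P4. The highest WT scores of these ages were on the arrays with 10.09 and 10.95 for Igfbp2. The part of liver transcripts in the change of Igfbp2 with age was not tested. In O2 at P4 Igfbp2 measured 10.93, 8.72 and 9.98 in KO and 11.07, 10.82 and 10.96 in WT lungs, and no O2 difference was called (0.22 ± 0.38 in KO, adjusted p = 0.774; -0.11 ± 0.38 in WT, adjusted p = 0.895). The groups ran from 10.95 ± 0.13 in WT O2 at P4 to 8.63 ± 0.13 in KO air at P1, and all 13 neighbours overlapped.

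RefSeq gives 2 start sites for Igfbp2, and the window of the downstream site is the only 1 of the 10 windows of these 9 genes that matches TGACNNNGC. It lies on the plus strand at chr1:72825137-72825436, and the match, in capitals, starts 24 bases after the start site:
Igfbp2: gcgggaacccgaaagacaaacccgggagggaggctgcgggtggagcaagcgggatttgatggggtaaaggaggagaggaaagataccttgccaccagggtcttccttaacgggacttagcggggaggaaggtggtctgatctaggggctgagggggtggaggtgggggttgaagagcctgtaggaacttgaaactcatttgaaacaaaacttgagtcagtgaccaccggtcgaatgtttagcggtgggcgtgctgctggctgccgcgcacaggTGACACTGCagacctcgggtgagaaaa
The window of the upstream site and those of Igf2r and Igfbp7 hold ACGTG, and those of Igf1r, Igfbp3 and Igfbp5 hold none of the 4 motifs. Igfbp2 and Igfbp5 are neighbours on chromosome 1.

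Igfbp5, a matrix-associated binding protein of mesenchymal cells, was lower with oxygen in WT lungs. At P4 Igfbp5 measured 9.81, 9.83 and 10.18 in WT O2 and 10.66, 10.49 and 11.10 in WT air lungs, without overlap. In KO lungs at P4 it measured 10.54, 9.93 and 9.98 in O2 and 10.38, 10.47 and 10.72 in air, which overlapped. The WT difference at P4 was -0.82 ± 0.26 (adjusted p = 0.0161), and the KO difference was -0.37 ± 0.26 (adjusted p = 0.292). Over 3 ages the differences were -0.34 ± 0.15 in KO (adjusted p = 0.106) and -0.45 ± 0.15 in WT (adjusted p = 0.0237, both probe sets called), and they did not differ between the genotypes by the test (0.11 ± 0.21, adjusted p = 0.886).

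The WT call for Igfbp5 ended in the fit on the contrast's arrays alone (-0.45, adjusted p = 0.0761). It also ended without WT air replicate 1 at P2 (-0.33, adjusted p = 0.0752), WT air replicate 3 at P4 (-0.39, adjusted p = 0.0618), WT O2 replicate 1 at P2 (-0.42, adjusted p = 0.0527) or WT O2 replicate 2 at P3 (-0.36, adjusted p = 0.0736). The WT call at P4 ended without WT air replicate 3 (-0.64, adjusted p = 0.106), WT O2 replicate 1 (-0.75, adjusted p = 0.0656) or WT O2 replicate 2 (-0.76, adjusted p = 0.0533) of that age. In WT lungs pericyte markers fell in 3 of 6 genes and rose in 1 with O2, with a median of -0.21. At P4 lung fibroblast markers fell in 4 of 11 genes and rose in 2 with O2 in WT lungs (median -0.44), and heart muscle markers fell in 2 of 10 (median -1.38). The fibroblast score ran from -0.38 to -0.13 on WT O2 and from 0.17 to 0.39 on WT air arrays at P4. The part of these cells in the Igfbp5 difference was not tested. By genotype the main Igfbp5 probe set gave 0.11 ± 0.15 in O2 and -0.01 ± 0.13 in air, not called, and the other probe set 0.38 (adjusted p = 0.00397) and 0.26 (adjusted p = 0.0133). The groups ran from 11.42 ± 0.68 in WT air at P2 to 9.94 ± 0.21 in WT O2 at P4, and all 13 neighbours overlapped.

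No difference between the genotypes in the O2 effect was called for any of the 9 genes over 3 ages, where 1.19% of all genes were called, or in the change between P1 and P4, where 0.0275% were. At an unadjusted p below 0.05, 2494 and 1926 of the 18194 genes passed in these comparisons. The O2 effects that were called in 1 genotype and not in the other, those of Igf1r, Igf2r, Igfbp5 and Igfbp6, are therefore not shown to differ between genotypes. The 95% interval of the difference in the O2 effect over 3 ages was narrowest for Igfbp4, from 0.01 to 0.26. This interval is not adjusted for the number of genes, and the limma adjusted p of that difference was 0.336.

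A list of other genes of the pathway was described through the 28 of its genes analysed here. After birth 2 of the binding protein protease genes rose: Htra1, a secreted serine protease, by 2.36 ± 0.21 in KO air (adjusted p = 5.85e-09) and 2.76 ± 0.21 in WT air (adjusted p = 1.38e-10), and Pappa2, by 1.47 ± 0.24 in KO (adjusted p = 3.60e-05) and 1.45 ± 0.24 in WT (adjusted p = 3.32e-05). Pappa, the gene of PAPP-A, was at -0.15 ± 0.24 in KO (adjusted p = 0.701) and -0.32 ± 0.24 in WT (adjusted p = 0.406). Between P1 and P4, 21.6% of all genes were called in KO air and 22.4% in WT air. The medians of the 28 genes were -0.15 and -0.06, against -0.06 and 0.01 over all genes. Of the 28 genes, 3 rose and 5 fell in KO air, and 3 rose and 8 fell in WT air. Those that fell in both included the insulin receptor gene Insr (-0.35 ± 0.12 in KO, -0.83 ± 0.12 in WT), the adaptor gene Irs2 (-0.56 ± 0.15 in each) and Igf2bp3, an RNA-binding protein of fetal tissue (-0.40 ± 0.11 and -0.58 ± 0.11). Grb10, an adaptor that restrains the receptor, rose by 0.39 ± 0.08 in KO and 0.23 ± 0.08 in WT air. Averaged over its probe sets, Grb10 was at 0.66 in KO, still called, and at 0.13 in WT (adjusted p = 0.527), and its WT call also ended without any 1 of the 6 WT air arrays at P1 and P4 (0.22 to 0.25, adjusted p of 0.0524 to 0.107). Insr was at -0.22 in KO and -0.29 in WT by the mean of its probe sets, both still called. The Insr call in KO ended with cyclic loess (-0.31, adjusted p = 0.0697), with the other-tissue covariates (-0.24, adjusted p = 0.0540) and without KO air replicate 1 or 3 at P1 or replicate 1 or 2 at P4 (-0.36 to -0.31, adjusted p of 0.0586 to 0.0961). The Igf2bp3 call in KO ended without KO air replicate 3 at P1 (-0.33, adjusted p = 0.0519) or replicate 2 at P4 (-0.30, adjusted p = 0.0680), and it was -0.23 with array weights (adjusted p = 0.0341). Igf2, the other ligand, named here after its values were seen, had differences of -0.80 ± 0.43 in KO (adjusted p = 0.197) and -0.62 ± 0.43 in WT (adjusted p = 0.370).

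With oxygen 2 of the 28 genes rose and 3 fell in KO lungs, and 3 rose and 6 fell in WT lungs. Of all genes, 20.8% were called in KO and 23.9% in WT lungs. The medians of the 28 genes were -0.05 in KO and -0.09 in WT lungs, against 0.01 in each over all genes. Stc1, whose protein inhibits PAPP-A, rose in both (0.76 ± 0.09 in KO and 0.74 ± 0.09 in WT, or 0.39 and 0.40 with the mean of its probe sets, both called), as did Pappa itself (0.64 ± 0.14 and 0.51 ± 0.14). Grb10 fell in both, with differences of -0.28 ± 0.05 in KO and -0.41 ± 0.05 in WT. Pik3r1, a regulatory subunit of PI3 kinase, fell by 0.33 in KO lungs (difference -0.33 ± 0.07). Irs1, an adaptor of the IGF1 receptor, fell by 0.75 in WT lungs (difference -0.75 ± 0.06, adjusted p = 1.58e-10) and was -0.15 ± 0.06 in KO lungs (adjusted p = 0.102), and this difference between the genotypes was called, at 0.60 ± 0.09. Insr fell by 0.31 in WT lungs (difference -0.31 ± 0.07) and was -0.06 ± 0.07 in KO lungs. With the mean of its probe sets the Insr difference in WT was -0.05 (adjusted p = 0.404).

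Between the genotypes 3 of the 28 genes were higher and none lower in KO lungs in O2, and 6 were higher and 9 lower in air. Of all genes, 12.5% were called in O2 and 29.0% in air. The medians of the 28 genes were 0.03 in O2 and -0.07 in air, against 0.01 in each over all genes. Akt1 was higher in KO by 0.17 ± 0.04 in O2 (adjusted p = 0.00808) and 0.29 ± 0.04 in air (adjusted p = 1.04e-06), and Shc1 by 0.16 ± 0.03 and 0.14 ± 0.03. In air Irs1 was lower in KO by 0.34 (difference -0.34 ± 0.06, adjusted p = 2.81e-05) and Insr by 0.43 (difference -0.43 ± 0.06, adjusted p = 2.18e-06). With the mean of its probe sets the Insr difference was -0.08 (adjusted p = 0.0888). Igfbp1, a binding protein of the liver that was also named after its values were seen, had the widest error, with -2.85 ± 0.86 in air (adjusted p = 0.0136) beside the 10 of 10 lower hepatocyte markers. Socs2, which restrains growth hormone signalling, was higher by 0.29 ± 0.06 in O2 and 0.27 ± 0.05 in air, but with the mean of its probe sets the differences were -0.0054 and 0.05 and not called.

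**Figure D5:**
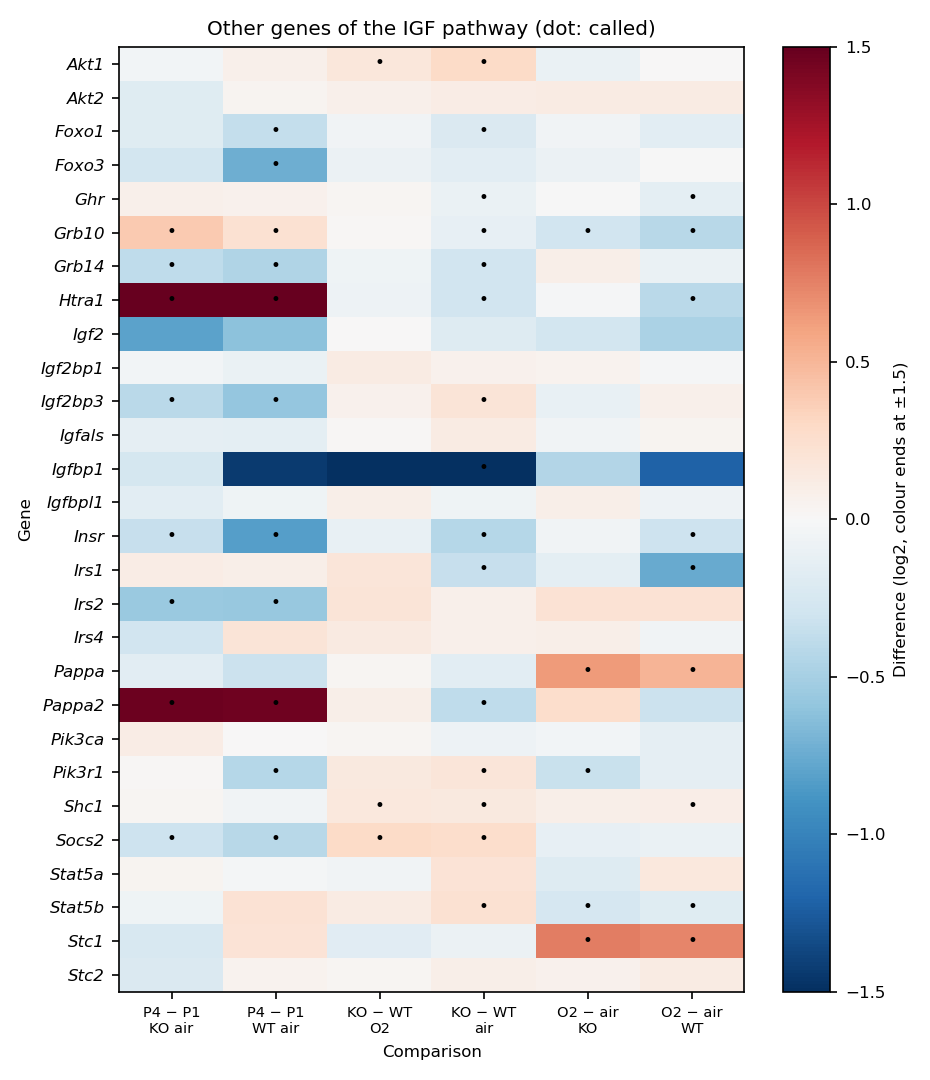
Differences on the log2 scale (colour, ending at ±1.5) of the 28 other pathway genes in 6 comparisons (columns), with a dot where limma called the difference. Htra1 and Pappa2 are higher with a dot in both P4 minus P1 columns, and Stc1 and Pappa in both O2 minus air columns.

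By pattern over the 14 group means, the genes most like each member were Cdca4 (Pearson r = 0.917), Iigp1 and Vbp1 for Igf1, Kidins220 (0.916), E4f1 and Gapvd1 for Igf1r, and Clba1 (0.770), Fam168a and Galnt14 for Igf2r. For the binding proteins they were Pom121 (0.914), Cul2 and Sarnp for Igfbp2, Agpat2 (0.888), Lims2 and Tigd2 for Igfbp3, and Rtel1 (0.918), Kcnip4 and Top3a for Igfbp4. They were Lrrc26 (0.956), Cox7a2l and Pxmp2 for Igfbp5, Hsd17b11 (0.949), Mfap3l and Aldoc for Igfbp6, and Shfl (0.931), Srprb and Rptor for Igfbp7. These values were picked as the highest among 18194 genes over 14 points that share arrays, so they describe likeness only. Within groups, over the 42 arrays, the same correlation was 0.71 for Kidins220 with Igf1r and 0.62 for Lrrc26 with Igfbp5, but 0.07 for Cdca4 with Igf1 and -0.09 for Rtel1 with Igfbp4.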

How the data were processed

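RNA of homogenised whole lung from 42 newborn mice was hybridised to Affymetrix 3' arrays of 45101 probe sets. The authors deposited log2 values normalised by RMA, and the software named is GCOS and RMA, per the submitters' processing notes. Array number limits the precision. The 34958 probe sets with a single gene symbol gave 18194 genes, each represented by its probe set of highest mean over the 42 arrays, and the 932 probe sets with several symbols were left out. Replicates are separate mice, per the labels' protocols. limma 3.58.1 in R 4.3.3 fitted 14 group means, with Benjamini-Hochberg adjustment over all genes and a threshold of 0.05; it was tested on simulated data. The 9 genes, the pathway list, the marker lists and the tests were chosen with earlier results of these data known. Named genes are the 9 members, the 3 genes most like each over the 14 group means (predicted genes and sex genes left out) and, of the pathway list, the called genes with the 4 smallest p in each main comparison. Alternatives were cyclic loess, array weights, a trended and robust variance, a filter on low values, the mean of all probe sets, single probe sets, the contrast's arrays alone, other-tissue scores as covariates, a replicate block and leaving out each array; leaving out the arrays with an other-tissue score above 2 was chosen after seeing the data.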

Additional observations from a re-analysis of the deposited data

Results flagged for a closer look

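The O2 effect on Irs1, an adaptor of the IGF1 receptor, differed between the genotypes by the test of the difference itself, at 0.60 ± 0.09 on the log2 scale (limma, adjusted p = 0.000188). Irs1 averaged 11.06 in KO O2 and 11.21 in KO air lungs, and 10.88 in WT O2 and 11.63 in WT air lungs. No such difference was called for any of the 9 genes.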

How the results depend on the processing

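The number of genes called for the genotype difference in the O2 effect was 217, against 442 with cyclic loess and 985 with array weights. For the genotype difference in the change between P1 and P4 it was 5, against 36 with cyclic loess, 1054 with array weights, 3 with the mean of the probe sets and 127 with the other-tissue covariates. Array weights gave 4530 in place of 2270 for KO against WT in O2 and 6381 in place of 4083 for P4 against P1 in WT air. The covariates gave 2402 in place of 3788 for O2 against air in KO and 2985 in place of 5271 for KO against WT in air. Of the 9 genes, array weights called 5 in place of 3 for O2 in KO, 5 in place of 3 for P4 against P1 in KO air and 1 in place of 0 for the genotype difference in that change. P4 against P1 in KO air had 5 on the contrast's arrays alone and 6 without the arrays high in other tissues. Both settings kept all P1 and P4 arrays of KO air, so the differences stayed the same and the estimate of the spread changed. Leaving out the arrays high in other tissues could not be run where it left a group empty, which held for every comparison that used WT air at P1 or P2. The mean of the probe sets called 2 in place of 4 for KO against WT in air and 2 in place of 5 in O2. The cause of the other changes was not tested.

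Leaving out 1 array at a time gave 1654 to 2546 genes for KO against WT in O2, 4513 to 5438 in air, 3333 to 4003 for O2 against air in KO, 3940 to 4604 in WT, 3065 to 4168 for P4 against P1 in KO air and 3217 to 4316 in WT air. The genotype difference in the O2 effect had 152 to 691 genes (691 without KO air replicate 2 at P2), and that in the change with age 1 to 42 (1 without KO air replicate 1 at P1, 42 without WT air replicate 1 at P1). Of the 9 genes, 4 to 6, 3 to 4, 2 to 4, 2 to 3, 2 to 4 and 4 to 8 were called in the 6 comparisons in that order, and 0 to 0 for both genotype differences.

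Single probe sets turned the sign of these values. For Igf1r, the probe set with a mean level of 7.11 gave -0.39 for KO against WT in air, which was itself called in that direction (adjusted p = 0.00830), and -0.029 in O2. The probe set at 6.11 gave 0.059 for O2 in WT, 0.054 at P3 in WT, 0.045 at P4 in KO and -0.020 for KO against WT in O2 at P3. For Igfbp5, the probe set at 8.55 gave 0.26 for KO against WT in air, itself called (adjusted p = 0.0133). For Igfbp7, the probe set at 7.37 gave -0.14 for O2 in WT, -0.18 at P4 in WT, -0.067 in KO and -0.041 at P2 in KO. It gave -0.034 for KO against WT in air, -0.023 at P1, -0.12 at P4 and -0.014 in O2 at P3, and in WT air -0.034 for P4 and -0.11 for P3 against P1. The probe set at 7.25 gave -0.15 for KO against WT in air, -0.16 at P1, -0.089 at P3 and -0.084 at P4, and in O2 -0.19, -0.12 at P3 and -0.58 at P4, the last itself called (adjusted p = 0.0103). With the mean of the probe sets Socs2 gave -0.0054 for KO against WT in O2.

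With the replicate block 4398, 3850, 230, 5278, 2343, 4141, 3961 and 6 genes were called for O2 in WT, O2 in KO, their difference, KO against WT in air and in O2, P4 against P1 in WT and in KO air, and their difference. The counts of the 9 genes in these comparisons were the same as without it. Correlations of the deviations of same-numbered samples ran from -0.48 to 0.69, not all above 0.1, so the numbers were not taken to pair the samples. Beside single probe sets, 3555 of 3627 values of the 9 genes in these comparisons stayed on their side of the threshold, 39 lost a call, 33 gained 1 and no called value turned its sign, while 87 values without a call did.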
